A study of Homo sapiens with 10 samples.

Results

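MV4-11 is an established human cell line of acute myeloid leukemia (AML) with monocytic features, known for a fusion of KMT2A with AFF1 and for an internal tandem duplication of FLT3. The transcriptome described here is that of MV4-11 cells of the genotype Control, that is, cells infected with the control vector and carrying no deletion of IRF8. The 4 control RNA-Seq libraries, replicates 1 to 4, are 4 of the 8 RNA-Seq libraries and of the 10 samples of the series, and were chosen by their label alone. The remaining samples, 4 RNA-Seq libraries of IRF8 KO cells and 2 IRF8 ChIP-Seq samples, entered no value. The cells grew in RPMI medium with fetal calf serum. All libraries come from 1 cell line, and nothing in the labels says whether the replicates are separate cultures, so the spread between them may be technical. The number of reads assigned to genes ranged from 48762519 to 65519047 per library.

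Acute monocytic leukemia arises from progenitors that have taken the first steps towards the monocyte and stop there. In the KMT2A-rearranged form, the fusion protein brings elongation factors and the methyltransferase DOT1L to a limited set of genes, among them the HOXA genes and MEIS1, which keep the cells in a self-renewing state. The transcription factors PU.1 (encoded by SPI1), CEBPA and IRF8 set the myeloid identity of such cells, and the receptor FLT3 drives their growth.

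The unit throughout is the normalized count, the number of reads of a gene divided by the size factor of its library. Values are the mean ± SD over the 4 libraries (n = 4) or the 4 single values in the order of replicates 1 to 4. A gene was put in 1 of 4 classes by its mean. Of the 19590 genes, 33.5% (6563 genes) were below 10 and are called absent or not detected here, 20.1% (3946) were low, from 10 to under 500, 33.4% (6547) were intermediate, from 500 to under 5000, and 12.9% (2534) were abundant, at 5000 or more. These shares are the background for every list of genes below. A level of 10 stands for about 0.190 to 0.209 CPM, and a library with 0 reads of a gene still allows up to 2.41 to 3.22 normalized counts (3 reads). In all 4 libraries alike, 2816 genes had no read. A longer transcript collects more reads, and transcript lengths were not used here, so values are compared between libraries and with the class limits, and levels of different genes are given side by side without an order.

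The 4 control libraries were not equally alike. Among the 13027 genes whose mean reached 10, log2 values of replicates 1 and 3 correlated at 0.997 and those of replicates 2 and 4 at 0.992, against 0.948 to 0.963 for the other 4 pairs of libraries. At least 2-fold apart were 157 genes between replicates 1 and 3 and 291 between replicates 2 and 4. Between the libraries of the other pairs it was 1804 to 2513 genes. No pair was a library deposited again, as the chi-square per gene was 7.12 for replicates 1 and 3 and 40.8 for replicates 2 and 4, where sampling noise alone gives 1. What sets replicates 1 and 3 apart from 2 and 4 is not given by the labels and was not tested. The mean of such genes is therefore a mean over unlike libraries, and single values are given below for many of them. For a gene given as mean ± SD, a large SD can hide the same gap. The same class in every library was found for 16556 genes (84.5%), but 6111 of these were below 10 throughout. On both sides of 10 lay 1058 genes (5.40%).

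The genes that mark these cells were present in all 4 libraries. IRF8, an interferon regulatory factor that drives monocyte and dendritic cell development, had 36891, 15192, 43016 and 22535 normalized counts (29408 ± 12787). It was abundant in each library, but replicate 3 held 2.83 times the value of replicate 2. FLT3, the receptor tyrosine kinase of early myeloid progenitors, had 45083, 66773, 43847 and 66057 (55439.8 ± 12686), and here replicates 2 and 4 were the high ones. SPI1, which encodes the ETS factor PU.1, partner of IRF8 on composite DNA sites, had 9546, 7991, 9039 and 7021 (8399 ± 1124). MEIS1, the cofactor of HOX proteins in leukemia, had 2904, 3141, 3007 and 3519 (3143 ± 269), and HOXA9 had 1959, 3394, 1957 and 3349 (2665 ± 817). SPI1 and MEIS1 varied little, with coefficients of variation (CV, SD over mean) of 13.4% and 8.55%, whereas those of IRF8, HOXA9 and FLT3 were 43.5%, 30.6% and 22.9%.

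To show the regulatory sequence behind 3 of these markers, the 250 bases before the start of FLT3, MEIS1 and HOXA9 are printed 5′ to 3′ on the strand of the gene, as the RefSeq table of build GRCh38.p14 gives them. They lie at chr13:28100577-28100826 (minus strand), chr2:66434875-66435124 (plus strand) and chr7:27165538-27165787 (minus strand). Capitals mark matches to short motifs searched on both strands, none of which overlap here.
FLT3: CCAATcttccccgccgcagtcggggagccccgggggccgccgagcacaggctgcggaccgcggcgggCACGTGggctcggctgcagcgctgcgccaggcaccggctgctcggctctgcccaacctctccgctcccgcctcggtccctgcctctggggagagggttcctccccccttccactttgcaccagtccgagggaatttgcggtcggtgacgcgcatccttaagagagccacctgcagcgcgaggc
MEIS1: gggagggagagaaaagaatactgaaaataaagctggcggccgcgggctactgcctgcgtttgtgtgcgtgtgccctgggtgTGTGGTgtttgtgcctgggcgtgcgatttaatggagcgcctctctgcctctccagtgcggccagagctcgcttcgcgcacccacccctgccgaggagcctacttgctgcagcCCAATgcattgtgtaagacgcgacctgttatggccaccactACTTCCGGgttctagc
HOXA9: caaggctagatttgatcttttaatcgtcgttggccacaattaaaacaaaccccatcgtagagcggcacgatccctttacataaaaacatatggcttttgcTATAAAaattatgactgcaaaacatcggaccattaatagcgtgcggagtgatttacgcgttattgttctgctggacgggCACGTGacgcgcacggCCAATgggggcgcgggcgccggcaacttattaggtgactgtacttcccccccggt
All 3 hold the CCAAT box (CCAAT, found in 32% of 35116 promoter windows of the same length), 250, 57 and 55 bases before the start. FLT3 and HOXA9 also hold the E-box CACGTG (6.34% of windows), 183 and 71 bases before it. The RUNX site TGTGGT (11.0%) was found in MEIS1, 169 bases before the start, beside an ETS site, CCGGAAGT on the opposite strand (3.42%), 16 bases before it, and the TATA box TATAAA (10.7%) in HOXA9, 150 bases before it. The composite ETS-IRF motif GGAANNGAAA (2.41%), the PU.1-type site GAGGAAGT (2.17%) and the MEIS site TGACAG (13%) had no match in the 3 windows. The windows had 26, 16 and 20 CpG pairs. A match is a string of letters and not a measured site. SPI1 and IRF8 are not printed.

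Most monocyte and macrophage genes were detected in the control cells, and most erythroid and T cell genes were absent. Of 27 monocyte and macrophage genes, 22 were at 10 or more (81.5%), and 3 were abundant (11.1%, against 12.9% of all genes). Of 21 neutrophil granule and granulocyte genes, 14 were at 10 or more (66.7%), a share close to that of all genes. Abundant were 4 (19%, against 12.9%). Against the 66.5% of all genes at 10 or more, the erythroid list stood at 1 of 18 genes (5.56%), the T cell list at 4 of 23 (17.4%), the non-haematopoietic list at 8 of 29 (27.6%) and the stem and progenitor list at 7 of 18 (38.9%).

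**Figure D1:**
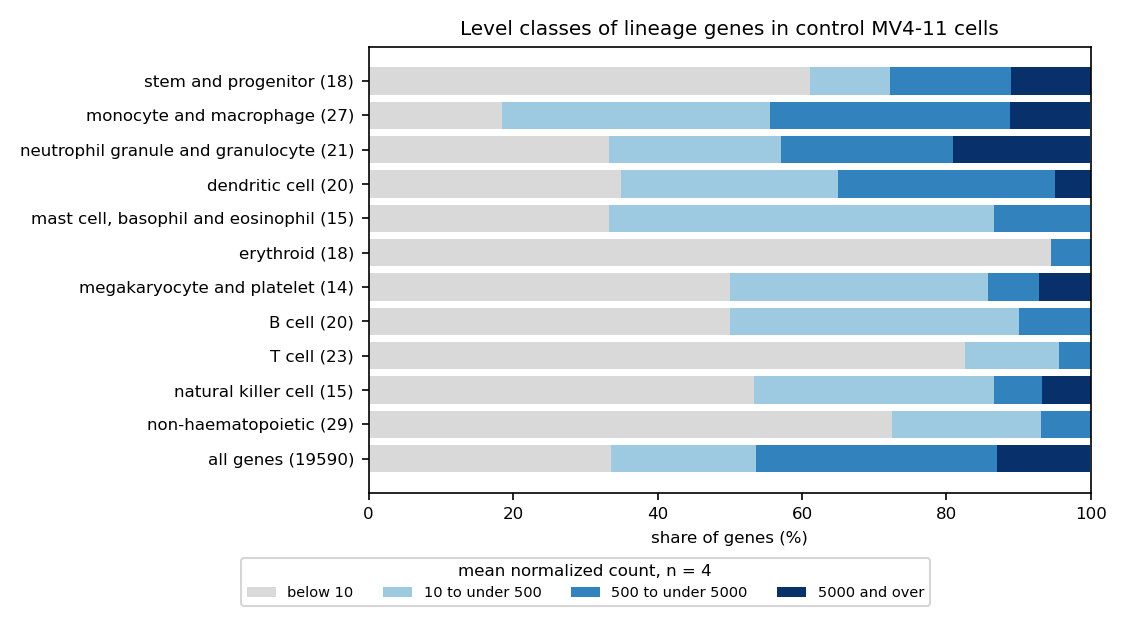
Share of the genes of each lineage list, in percent, in 4 classes of the mean normalized count over the 4 control libraries, with the number of genes of the list in brackets and all 19590 genes in the lowest bar. The erythroid bar is almost wholly in the class below 10, whereas 81.5% of the monocyte and macrophage genes are at 10 or more.

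Among monocyte and macrophage genes, those expressed included receptors, enzymes and a signaling adaptor. Abundant were AIF1, an actin-binding protein of macrophages (15963 ± 2288), CSF1R, the receptor of the macrophage growth factor M-CSF (5941 ± 995), and LYZ, which encodes lysozyme. LYZ was among the less stable genes, with 12725, 1734, 14757 and 2629.7 normalized counts, so that replicates 1 and 3 were high and 2 and 4 low. Intermediate genes included CTSS, a lysosomal protease of antigen-presenting cells (3767 ± 307), FCGR1A, the high-affinity IgG receptor (2752 ± 394), CD68 (2253 ± 217), CYBB, the catalytic subunit of the phagocyte oxidase (2091 ± 796), and TYROBP, a signaling adaptor (1922 ± 86.2). MPEG1, a pore-forming protein of macrophages, had 1261 ± 709. The monocyte receptors CCR2 and CX3CR1, given below, were intermediate too. Some other genes of mature monocytes and macrophages were low or absent. CD14, the lipopolysaccharide coreceptor, was below 10 as a mean, with 10.5, 6.9, 12.9 and 1.88, and MSR1, MRC1 and FCGR3A were below 10 too. S100A8 and S100A9, the calcium-binding proteins of mature phagocytes, were low and uneven. S100A8 had 595, 9.49, 935 and 233, and S100A9 had 505, 21.6, 886 and 255, both lowest in replicate 2. ITGAM (CD11b) had 79.6 ± 22.1, and VCAN 28.4 ± 13.1 normalized counts. FCN1 had 67.6, 10.4, 41.9 and 10.4.

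Among granulocyte genes, several proteins of the early azurophil granule were expressed, and most proteins of later granules were low or absent. PRTN3 (proteinase 3) had 18873, 8329, 19381 and 9039 normalized counts, AZU1 (azurocidin) 8795 ± 653, ELANE (neutrophil elastase) 2867 ± 38.2, and MPO (myeloperoxidase) 767 ± 54.6. CTSG (cathepsin G) had 2266, 9119.8, 2012 and 9591. MS4A3, a membrane protein of granulocyte-monocyte progenitors, had 8597, 2058, 9710.1 and 3275. These last 2 were uneven in opposite ways, CTSG being high in replicates 2 and 4 and MS4A3, like PRTN3, in replicates 1 and 3. BPI, another azurophil granule protein, was low (20.7 ± 11.0). Of the specific granule genes, LTF (lactoferrin) had 3.22, 56.1, 3.22 and 23.5 and CAMP 2.41, 12.1, 5.37 and 34.8. MMP9, the protease of the gelatinase granule, was intermediate (1301, 1210.2, 1657 and 2772). LCN2, MMP8, CEACAM8, DEFA4, OLFM4 and CD177 were below 10, as was FCGR3B. CEBPE, the factor that turns on late granule genes, had 44.0 ± 11.5 normalized counts.

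Of the dendritic cell genes, 13 of 20 were at 10 or more (65%), close to the 66.5% of all genes. CLEC10A, a lectin of conventional dendritic cells, had 1586 ± 513 normalized counts, SPIB, an ETS factor of plasmacytoid dendritic cells, 1177 ± 88.7, TCF4 989.9 ± 348, ZBTB46 618 ± 205 and CD1C 279 ± 133. CADM1, an adhesion molecule that also marks cross-presenting dendritic cells, was uneven, with 1648, 12392, 1259 and 10704. CLEC9A, XCR1, CLEC4C, LAMP3, CD207, TCL1A and GZMB were below 10. Of mast cell, basophil and eosinophil genes, RNASE2, a ribonuclease shared by eosinophils and monocytes, had 5057, 1361, 5176 and 2246. Its neighbour RNASE3 had 857, 154, 902 and 238, and both were high in replicates 1 and 3. Of the 15 genes of this list, 10 were at 10 or more (66.7%), again close to all genes, and 8 of these were low. MS4A2, EPX, PRG2, CCR3 and SIGLEC8 were among the low ones. The members below 10 were CPA3, HDC, CLC, PRG3 and IL5RA. The tryptase genes TPSAB1 and TPSB2 are near-identical copies, and their values are uncertain. TPSAB1 had 25.7, 263, 29.0 and 97.9 and TPSB2 36.2, 345, 41.9 and 123.

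Of the 18 stem and progenitor genes, the 7 at 10 or more were mostly transcriptional regulators, while the surface markers were low or absent. MYB, a factor of proliferating progenitors, had 34712 ± 3211 normalized counts, LMO2, a bridging factor of blood stem cells, 5594 ± 414, MSI2, an RNA-binding protein, 3395 ± 787, and LYL1 2294 ± 279.8. GATA2 had 938, 225, 962 and 309. TAL1, its partner in a stem cell complex, had 32.2, 420.1, 27.9 and 212, so that GATA2 was high in replicates 1 and 3 and TAL1 in replicates 2 and 4. CD34 was below 10 as a mean, with 16.1, 0, 17.2 and 5.65, and KIT, the stem cell factor receptor, had 22.0 ± 1.24. PROM1 (CD133), ERG, HLF, MECOM, BAALC, THY1, HOPX, SPINK2, AVP and CRHBP were below 10.

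Of other lineages, single regulators and adhesion genes were expressed without most of the defining receptors. None of these globin genes had a read in any control library (HBA1, HBA2, HBB, HBD, HBG1, HBG2, HBE1 and HBZ), and GATA1, KLF1 and ALAS2 were below 10. The detected erythroid gene was EPOR, the erythropoietin receptor (774 ± 135). Of the T cell genes, CD3D, CD3E, CD3G, CD2, CD8A, LCK and ZAP70 were below 10, while LAT, a signaling adaptor, had 1103 ± 294 and CD28, a costimulatory receptor, 137, 861, 111 and 704. The B cell list had 10 of 20 genes at 10 or more (50%, against 66.5% of all genes). EBF1, an early B cell factor, had 2069, 5592, 2159 and 4324 normalized counts and IGLL1, a part of the surrogate light chain, 1998 ± 301, whereas PAX5 had 14.1 ± 5.39, and MS4A1 (CD20), VPREB1 and DNTT were below 10. NCAM1 (CD56), a natural killer cell marker that is also found on monocytic leukemias, was abundant and uneven, with 6003, 18500.2, 5207 and 12165, and NKG7, a cytotoxic granule protein, had 2709 ± 257. EOMES, NCR1, KLRF1, KLRD1 and GNLY were below 10. ITGA2B (CD41), the platelet integrin, had 5699.6, 14575, 5624 and 13016, but its partner ITGB3 had 16.1 ± 4.81 and PF4, PPBP and GP9 were below 10.

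Of the 29 non-haematopoietic genes, 21 were below 10 (72.4%, against 33.5% of all genes). EPCAM, CDH1, KRT5, COL1A2, COL3A1, DCN, LUM, CDH5, ALB and GFAP were among them. The keratin gene KRT8 had 1049.8, 3187, 973 and 2777, and KRT18, which encodes its partner in epithelial cells, 492 ± 37.3. The muscle actin ACTA1 had 2406, 1114, 2421 and 1317, high in replicates 1 and 3. The actin gene ACTB, with far more reads, was high in the same libraries (360702, 163715, 351947 and 186336). Whether reads of ACTB were counted on ACTA1 was not tested, so the value of ACTA1 is uncertain. The other genes at 10 or more were low, namely COL1A1 (17.5 ± 8.66), APOA1 (17.2 ± 9.81), DES (41.7 ± 12.8), SYP (48.5 ± 15.6) and PMEL (25.4 ± 7.07).

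Among myeloid transcription factors, 46 of 49 were at 10 or more (93.9%, against 66.5% of all genes). Abundant were 16 (32.7%, against 12.9%). RUNX1, the core binding factor of definitive blood formation, had 23269 ± 2216 normalized counts, its partner CBFB 9643 ± 1029, and RUNX3 7481 ± 839. RUNX2, better known from bone, had 12315, 29204, 13485 and 25268. CEBPA, the factor of granulocyte-monocyte commitment, had 18165, 11888, 18636 and 12146. CEBPB, a factor of later monocytes, had 951, 4084, 943 and 3709.7, with the high and low libraries the other way round. ZEB2 (24451 ± 1547), MEF2D (18106 ± 1013), MEF2C (13955 ± 1022), IKZF1 (Ikaros, 14643 ± 2230.3) and ELF1 (17071 ± 312) were abundant with a small spread. GFI1, a repressor of monocyte genes in granulocytic cells, had 6092 ± 624. Of factors active in monocyte and macrophage differentiation, TFEC (2619 ± 342) and EGR1 (2204, 527, 872 and 431) were intermediate, KLF4 (266 ± 36.0) and EGR2 (16.4 ± 7.22) were low, and MAF was below 10. Of the other interferon regulatory factors, IRF2 had 2084 ± 272, IRF1 1689 ± 527, IRF5 1051 ± 341 and IRF4 557 ± 108 normalized counts.

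All 16 genes of the KMT2A fusion machinery were detected, 10 as intermediate and 6 as abundant (37.5%, against 12.9% of all genes). Their median CV was 10.2%, against 19.1% for all genes at 10 or more. KMT2A had 5403 ± 246 and AFF1 7642 ± 723 normalized counts. Reads of the fusion transcript and of the unfused genes are counted in the same rows and cannot be told apart. DOT1L, the histone H3 lysine methyltransferase that the fusion recruits, had 12896 ± 531, MEN1, the menin cofactor, 3656 ± 879, PSIP1, which tethers menin to chromatin, 7419, 13059, 7288 and 15621, and MLLT1 (ENL) 11861, 7167, 11345 and 7435. The kinase CDK9 of the elongation complex had 3025 ± 105 and its cyclin CCNT1 4945 ± 184. MLLT3, another partner gene of KMT2A fusions, was the sole member under 1000, at 695 ± 159.5.

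Of 28 genes known as targets of KMT2A fusions, 13 were abundant, 9 intermediate, 4 low and 2 below 10. The abundant share was 46.4%, against 12.9% of all genes. Besides FLT3, MYB, ZEB2, MEF2C and RUNX2, the abundant ones included CDK6, the cell cycle kinase (19214 ± 2566), BCL2, the inhibitor of apoptosis (12129, 21165, 12853 and 19388), SATB1, a chromatin organizer (22549 ± 3333), MBNL1, a splicing factor (32845 ± 6614), LAMP5, a lysosomal membrane protein (16604 ± 855), and JMJD1C (4591, 8140.0, 4469.5 and 7541). PBX3, the partner of MEIS1 and HOXA9, had 4851 ± 802. UBASH3B, a phosphatase of signaling receptors, had 776, 3235, 564 and 2356, high in replicates 2 and 4. Not every target was on. HOXA7 had 11.3, 38.0, 11.8 and 29.2 and SKIDA1 31.9 ± 10.04 normalized counts, and PROM1 and ZNF521 were below 10 in every library.

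**Figure D2:**
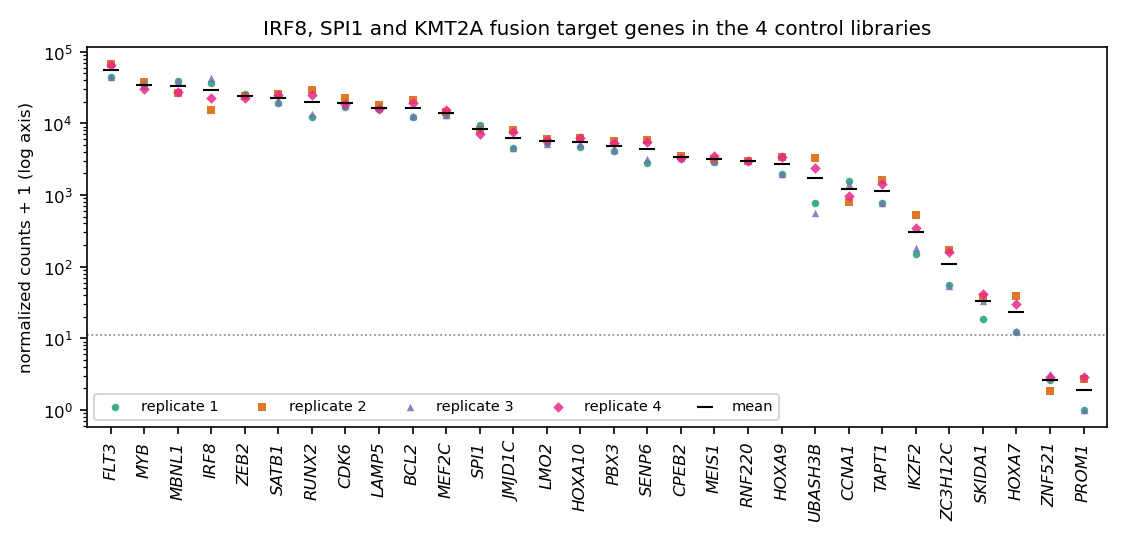
Normalized counts + 1 on a log axis for IRF8, SPI1 and the 28 KMT2A fusion target genes. Each gene has 1 symbol per control library and a dash for the mean, and the dotted line stands at 10. Heights are not corrected for transcript length. The libraries lie close together for genes such as RNF220 and MEF2C and apart for IRF8 and UBASH3B, and PROM1 and ZNF521 lie below the line.

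The HOX genes, which give cells their position along the body axis and are silenced as blood cells mature, were detected mainly in the HOXA cluster, where HOXA9, HOXA10 and HOXA11 were intermediate or abundant and 7 of 11 genes low. HOXA10 had 4728, 6179, 5159 and 6222 normalized counts, HOXA9 the values given above, and HOXA11 1882, 2082, 1980.2 and 1925. The sources name no strand setting for the counting, so reads of HOXA11 and of a transcript antisense to it cannot be told apart. HOXA5 had 93.2 ± 22.2, HOXA6 46.1 ± 12.1, HOXA13 43.8 ± 7.4, HOXA3 38.7 ± 25.7 and HOXA4 26.8 ± 5.84, and HOXA2 was below 10. In the HOXB cluster, HOXB4 (615 ± 10.4) and HOXB7 (607 ± 124) were intermediate, HOXB3 (386, 735, 398 and 443) and HOXB6 (50.1 ± 18.4) were low, and 5 genes were below 10. HOXB9, also low as a mean, had 0.804, 85.4, 0 and 40.5. The HOXC cluster was low, with HOXC6 (120.2 ± 36.1) and HOXC10 (95.1 ± 31.6) among 5 low genes and 4 of 9 genes below 10. All 9 HOXD genes were below 10, and 8 of them had no read in any control library. Of the cofactors, PBX2 had 11989.9 ± 1039 and MEIS2 1612 ± 113. PBX4 (40.7 ± 2.55) and MEIS3 (13.7, 56.9, 20.4 and 70.6) were low.

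**Figure D3:**
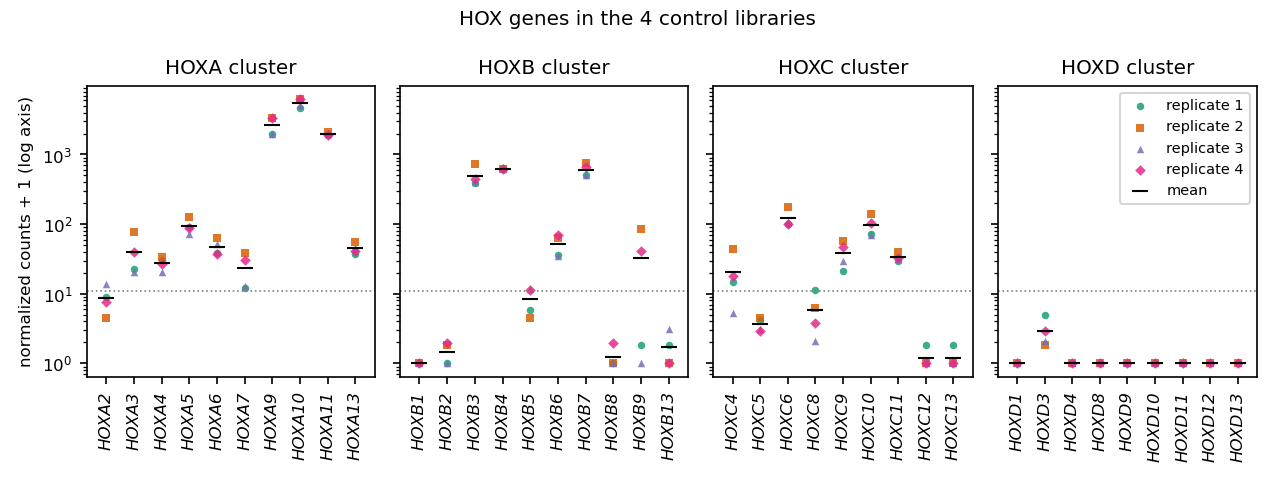
Normalized counts + 1 on a log axis for genes of the 4 HOX clusters in the order of their numbers, with 1 symbol per control library, a dash for the mean and a dotted line at 10. HOXA9, HOXA10 and HOXA11 lie above 1000, whereas the whole HOXD cluster lies below the line.

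Of 40 genes recurrently mutated in AML, 38 were at 10 or more (95%, against 66.5% of all genes). Abundant were 23 (57.5%, against 12.9%). NPM1, a nucleolar chaperone with many pseudogenes, had 117198, 74592, 116071 and 79532 normalized counts. NRAS had 8401 ± 1049.5, IDH1 4126, 5531, 3970.2 and 8359.9, IDH2 16016 ± 1581, DNMT3A 1784 ± 334, TET2 2026 ± 237, EZH2 5115 ± 1341 and WT1, a zinc finger factor of AML blasts, 2916 ± 452. The cohesin gene RAD21 (45267 ± 6345) and the splicing gene SF3B1 (34063 ± 847) were abundant. CALR, a chaperone of the endoplasmic reticulum, was uneven, with 100407, 34129, 92318 and 38672, high in replicates 1 and 3. KIT was low, and SETBP1 was below 10. RNA levels do not show whether a gene is mutated, and no sequence variant was read here.

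Of the BCL2 family, 15 of 17 genes were at 10 or more (88.2%), and of the oncogenes and cell cycle drivers 27 of 29 (93.1%). The share of all genes was 66.5%. BCL2 and MCL1 (9833 ± 1526) were abundant among the BCL2 family, BCL2L1 (BCL-XL) had 2273 ± 328 and BCL2A1 54.6 ± 14.8, and BCL2L10 was below 10. Of the effectors, BAX had 3175 ± 739 and BAK1 4110.2 ± 918, and of the sensors of damage and stress, BCL2L11 (BIM) had 1845 ± 157 and HRK was below 10. BMF had 2279, 7296, 2516 and 6081. BBC3 (PUMA) had 163, 683, 162 and 622 and, like BMF, was high in replicates 2 and 4. The oncogenic transcription factor MYC had 25927 ± 2139.6 normalized counts, MYCL 619 ± 214, and MYCN had no read. Of the D cyclins, which start the cell cycle with CDK4 and CDK6, CCND3 had 25576 ± 3282, CCND2 3056, 7404, 2368 and 6455 and CCND1 67.3 ± 24.0. CDKN2A, which encodes the inhibitors INK4a and ARF, had 3376 ± 363, and CDKN1A (p21) 317, 1295, 258 and 1264. PIM1, a kinase gene downstream of FLT3 and STAT5, had 15146, 32925, 11116 and 32072 normalized counts, high in the libraries in which FLT3 was high. The fetal RNA-binding proteins IGF2BP1 (10008 ± 519.6) and LIN28B (3569, 1818, 3495 and 2017) were expressed, whereas HMGA2, a fetal chromatin protein, had no read.

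Most receptor tyrosine kinases were low or absent. Of 58 receptor tyrosine kinases, 3 were abundant (5.17%, against 12.9% of all genes). They were FLT3, CSF1R and the insulin receptor INSR (4558, 7612, 4789.5 and 7439). Another 6 were intermediate, EPHB3 (3365 ± 324), IGF1R (2721 ± 784), FGFR1 (1096, 3405, 1159.8 and 2212), LMTK2 (1113 ± 35.0), EPHB4 (1102 ± 143) and TYRO3 (1038 ± 59.2). AXL, a receptor of the same family as TYRO3, had 419 ± 111. KIT and PDGFRB, the near relatives of FLT3 and CSF1R, had 22.0 ± 1.24 and 39.9 ± 29.5, and PDGFRA was below 10. In all, 27 were low (46.6%, against 20.1% of all genes). Below 10 were 22 (37.9%, against 33.5%), among them EGFR, MET, ERBB4, ALK, RET, KDR and TEK.

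**Figure D4:**
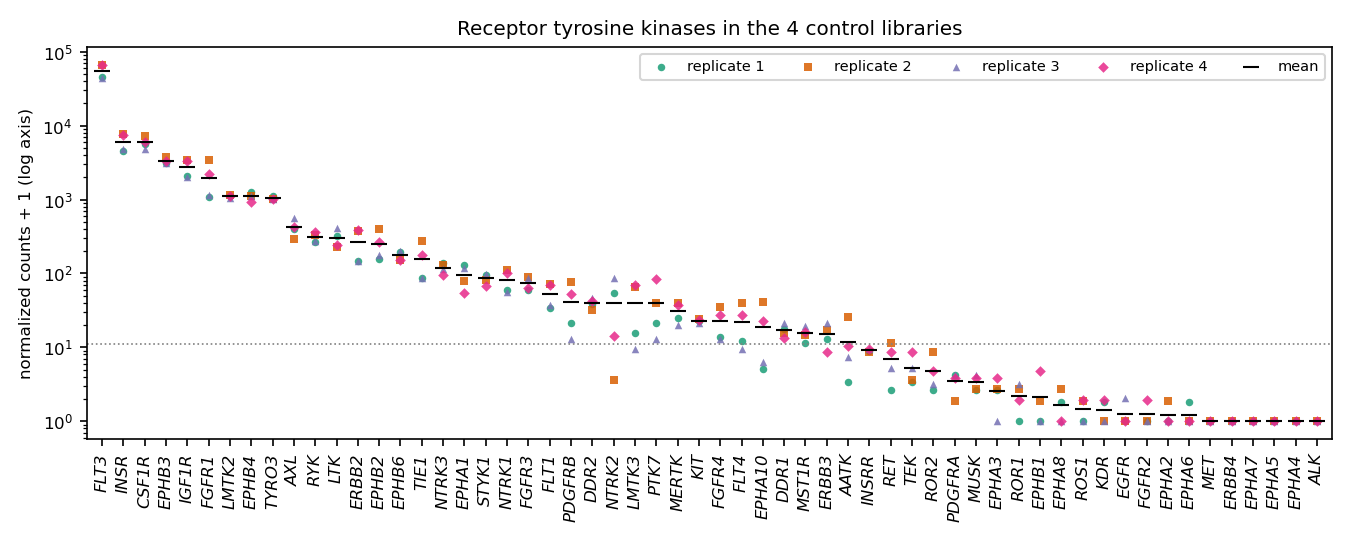
Normalized counts + 1 on a log axis for 58 receptor tyrosine kinases, with 1 symbol per control library, a dash for the mean and a dotted line at 10. Genes are placed by their mean, and heights are not corrected for transcript length. FLT3 has 43847 normalized counts or more in each library, and 22 genes lie below the line.

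Both chains of the receptors for the growth factors IL-3 and GM-CSF were expressed. IL3RA (CD123) had 4142 ± 753 normalized counts, CSF2RA 1356, 2205, 1617 and 2584 and their shared signaling chain CSF2RB 2950.3 ± 269. CSF3R, the G-CSF receptor, had 949, 1706, 911 and 2139. Both chains of the receptors for type I interferon, IFNAR1 (6320.5 ± 877) and IFNAR2 (1776 ± 436), and for interferon gamma, IFNGR1 (4346 ± 274) and IFNGR2 (3987 ± 139), were intermediate or abundant. For other receptors a chain was low or absent. IL12RB1 had 1713 ± 202 and its partners IL12RB2 and IL23R were below 10. IL6R had 3952, 649, 4622 and 1069 beside 197 ± 29.1 for IL6ST, the shared gp130 chain. IL10RA and IL10RB, the chains of the IL-10 receptor, had 39.5 ± 11.5 and 10.5 ± 2.79. Whether reads of IL10RB were lost in counting was not tested. IL7R, the receptor of a lymphoid growth factor, was uneven, with 2436, 115, 2592 and 339, high in replicates 1 and 3. IL21R had 1173, 2442, 1118 and 2819.9, high in replicates 2 and 4. LIFR, OSMR, IL1R1, IL18R1, IL5RA, PRLR and GHR were below 10. In all, 17 of 45 cytokine receptors were (37.8%, against 33.5% of all genes).

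Of the TNF and TGF-beta family receptors, 24 of 27 were at 10 or more (88.9%, against 66.5% of all genes). Abundant were TGFBR1 (9130.0 ± 1245), the TNF receptors TNFRSF1A (7692 ± 354) and TNFRSF1B (6354 ± 1315), and the coreceptor ENG (6774 ± 647). The TRAIL receptor TNFRSF10B had 1991, 4369.7, 1685 and 4704, FAS, the other main death receptor, 149 ± 41.5, and CD40 77.0 ± 33.0. Among receptors of microbial products, TLR2, a sensor of lipoproteins, had 3693 ± 379.7, TLR9, a sensor of CpG DNA, 1140.0 ± 225, TLR4 486 ± 118 with its coreceptor LY96 at 309 ± 118, and the inflammasome sensor NLRP3 3576 ± 500.2. TLR7, a sensor of single-stranded RNA, had 153, 915, 129 and 821. TLR3, TLR8, TLR10, CLEC7A and CLEC4E were below 10. The IgG receptors FCGR2A (3230.5 ± 269) and FCGR2B (1549.6 ± 183) are close paralogs whose reads may be shared.

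Among homing receptors, CXCR4, which holds blasts in the bone marrow, had 4055, 5887, 3977 and 3454. Of the receptors of monocytes, CCR1 had 5198, 2803, 4665 and 3019. CCR2 had 4729, 741, 4348 and 1802, and CX3CR1 had 1591, 2737, 1395 and 2850.0, so that CCR2 was high in replicates 1 and 3 and CX3CR1 in replicates 2 and 4. FPR1, FPR2, CCR4, CCR8, CCR9 and S1PR1 were below 10, and C5AR1, the receptor of complement C5a, had 2.41, 223, 0 and 291. Among integrins, the leukocyte pair ITGAL (56891, 84621, 60039.8 and 78963) and ITGB2 (19750.3 ± 3531) and the fibronectin receptors ITGA5 (11199.7, 21089.6, 10209 and 16107), ITGA4 (5373 ± 891) and ITGB1 (8343, 12621, 7630.0 and 13075) were abundant, as was ITGA2B. ITGAX (CD11c) had 224, 1319.7, 177 and 1408. The collagen and epithelial integrins ITGA1 (24.3 ± 15.1), ITGA2 (106 ± 19.2) and ITGB4 (65.5 ± 25.3) were low, and ITGB6, ITGB8 and ITGA8 were below 10.

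Of the surface antigens used to recognise or target AML cells, 25 of 29 were at 10 or more (86.2%, against 66.5% of all genes). CSPG4 (NG2), a proteoglycan known as a marker of KMT2A-rearranged leukemia, had 11269.6 ± 971 normalized counts, CD44 8841, 17369, 7043 and 14647, CD99 9267 ± 822 and HLA-DRA 8443 ± 1585. CD33 had 3037 ± 476, CD4 4216 ± 922, LILRB4 3842 ± 868, IL1RAP 1678, 3363, 1559 and 3455 and CD47 3096 ± 251. CLEC12A (CLL-1, 72.5 ± 42.8), HAVCR2 (TIM-3, 29.6 ± 12.2) and CD96 (3.22, 24.2, 3.22 and 13.2) were low. CD7, CD274 (PD-L1), PROM1 and MSLN were below 10.

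Among 48 nuclear receptors, the glucocorticoid receptor NR3C1 (10372, 20436, 10600.3 and 16747), PPARD (7715 ± 2029.9) and the retinoic acid receptor RARA (5404 ± 793) were abundant, and the heterodimer partners RXRA (4139.8 ± 224) and RXRB (4474 ± 374) and the vitamin D receptor VDR (1017 ± 315) were intermediate. ESR1, ESR2, PGR, NR5A2, NR1H4 and HNF4A, the receptors of reproductive, liver and gut tissue, were below 10. In all, 20 of 48 were (41.7%, against 33.5% of all genes).

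Of the 15 metabolic lists, that of tissue isoforms of respiratory chain subunits alone had a smaller share of genes at 10 or more (63.6%) than all genes (66.5%). Of 31 genes of glycolysis and lactate, 24 were at 10 or more (77.4%, against 66.5% of all genes). Abundant were 13 (41.9%, against 12.9%). GAPDH had 166958 ± 8373 normalized counts, ENO1 116177 ± 6579, PKM 67399.7 ± 18102, LDHA 50424 ± 13277, PGK1 36867 ± 5271 and TPI1 34270.4 ± 7896. Among the 57 genes of 22 enzymes with several isoforms, 14 were below 10, and in 8 of the enzymes a single gene was at 10 or more. In all 22 enzymes the same gene took the most reads in each of the 4 libraries. Reads of isoforms were not corrected for transcript length, so this is an order of reads and not of molecules, and no test was made.

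Silent isoforms included those of liver, germ line and erythroid cells. HKDC1 was below 10, beside HK1 (6212 ± 1023) and HK2 (10873 ± 724). HK3, a myeloid hexokinase, was low at 70.03 ± 14.6. ALDOC had 777, 4898, 769 and 3632. PKLR was below 10 beside PKM, LDHC and PGK2 of the testis beside LDHA, LDHB (12641 ± 1071) and PGK1, and PDHA2 beside PDHA1 (5021 ± 1328). ALDOA, whose product is in almost every cell, was listed at only 233, 238, 243 and 236, and whether its reads were lost in counting was not tested. Erythroid ALAS2 was below 10 beside ALAS1 (4732 ± 531), and MAT1A of the liver beside MAT2A (24388 ± 2142). PCK1 was below 10 and the mitochondrial PCK2 had 3065, 8994, 3125 and 11638. ENO2 had 265, 2166, 229 and 1384, again with the high values in replicates 2 and 4. ARG1, the liver arginase, was below 10 and ARG2 low (80.5 ± 13.8). PDK4 had no read beside PDK1 (855, 3023, 882 and 2682), PDK3 (618 ± 89.8) and PDK2 (422 ± 44.6).

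Of the carriers of sugar and lactate, those expressed included SLC2A1 (GLUT1, 6312 ± 570.1), SLC2A3 (GLUT3, 1824, 7759.6, 1560.4 and 5298), the fructose carrier SLC2A5 (1932, 3557, 1166 and 2713) and the monocarboxylate carriers SLC16A1 (8512 ± 1197) and SLC16A3 (11918 ± 659). The liver and gut carriers SLC2A2 and SLC5A1 were below 10. PYGL, the liver-type glycogen phosphorylase, which leukocytes use as well, had 18700.3 ± 3339, PYGB 5557 ± 1234 and the muscle form PYGM 48.6 ± 4.88. All 8 genes of the pentose phosphate pathway were at 10 or more, against 66.5% of all genes. TKT had 28055 ± 3454, and TKTL1 was low and uneven (16.9, 526, 14.0 and 178).

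The tricarboxylic acid cycle had 32 of 34 genes at 10 or more (94.1%, against 66.5% of all genes). Abundant were 14 (41.2%, against 12.9%), among them MDH2 (16881 ± 2618), IDH2 and CS (13399 ± 2472). Of the tissue isoforms of the respiratory chain, the general COX4I1 (12572 ± 2042), COX6A1 (5504 ± 1473) and COX6B1 (7033, 3191, 6872 and 3659) were abundant and the lung, muscle and testis forms COX4I2, COX6A2, COX7A1, COX6B2 and COX8C were below 10. The adenine nucleotide carriers SLC25A6 (57223 ± 8044) and SLC25A5 (20050.0 ± 4162) were abundant, SLC25A4 of muscle was low (189.7 ± 25.5), and SLC25A31 of testis had no read. UCP2, the uncoupling protein of leukocytes, had 7839 ± 796, while UCP1 of brown fat was below 10.

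The 37 genes of fatty acid and lipid metabolism include synthesis, storage and oxidation. Of these, 14 were abundant (37.8%, against 12.9% of all genes) and 8 low (21.6%, close to the 20.1% of all genes). SCD, the desaturase that makes oleate, had 28871 ± 2706 normalized counts, FASN 32312, 17814, 26713 and 21219, ACLY 22113 ± 2810.1 and FADS2 11092 ± 1638. The synthesis genes ELOVL6 (59.1 ± 24.3), SCD5 (239 ± 78.2) and ACACB (493 ± 165) were low. Of the cholesterol genes, 18 of 20 were at 10 or more (90%, against 66.5% of all genes), with FDFT1 at 10116 ± 1930.2. The fat-storage and gut genes LPL, FABP4, FABP1 and FABP2 were below 10, but OXCT1, which uses ketone bodies, had 9005 ± 898. Among cholesterol genes ABCG1, an exporter of macrophages, was below 10 and ABCA1 had 467, 1738, 210.5 and 1224.

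Genes of amino acid and one-carbon metabolism were abundant and uneven, and the serine, glycine and one-carbon list had the highest median CV of the 15 metabolic lists (43.3%). PHGDH, the first enzyme of serine synthesis, had 6109.9, 19899, 6039.5 and 27015 normalized counts. PSAT1, the next one, had 10409.7, 36112, 10746 and 39502. ASNS (asparagine synthetase) had 2405, 18523, 2619 and 22151. Both serine enzymes and ASNS were thus several times higher in replicates 2 and 4. CTH, which makes cysteine, had 125, 2499, 116 and 3048. ASS1, which lets cells make arginine, had 7451, 34907, 7873 and 36755. The cystine carrier SLC7A11 had 397, 5565, 530.5 and 7703. In each of these 6 genes replicates 2 and 4 held the high values and replicates 1 and 3 the low ones. BCAT1, which transaminates branched-chain amino acids, had 17164, 29073, 17325 and 30416. The leucine carrier SLC7A5 had 29598, 54558, 28245 and 57647, high in the same libraries. SHMT2 (19633 ± 4437) and MTHFD2 (15156, 29337, 16226 and 34291), the mitochondrial one-carbon enzymes, were abundant as well. IDO1, TDO2, OTC and TAT were below 10. GLUD2 (4396, 4197, 4422 and 4351) is a near-identical copy of GLUD1 (15314 ± 443), and its value is uncertain.

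Nucleotide metabolism showed the gap in the other direction. RRM2, the ribonucleotide reductase subunit of S phase, had 26018, 6746, 28217 and 10610.2 normalized counts. TK1 (thymidine kinase) had 8325, 1901, 8010.1 and 3303. TYMS (thymidylate synthase) had 5511, 1666, 5391 and 2354, and all 3 genes were high in replicates 1 and 3. The cell cycle genes E2F1 (3788, 1734, 3619 and 1966) and CCNE1 (726, 162, 884 and 309) were high in the same libraries. PAICS (40726, 23524, 40579 and 27161) and IMPDH2 (17094 ± 1505) of purine synthesis were abundant, and DHODH, the pyrimidine enzyme that is a drug target in AML, was intermediate (1209.9 ± 232). For cytarabine, the standard drug of AML, the importer SLC29A1 had 14972, 3606, 14195 and 4563. The activating kinase DCK had 3911 ± 516 and the deaminase CDA 25.7 ± 17.9. The inactivating hydrolase SAMHD1 had 8919.8, 4535, 8619 and 5719.9, high like SLC29A1 in replicates 1 and 3. As a median over the list, nucleotide genes deviated from the 4-library mean by 0.22, -0.31, 0.30 and -0.21 on the log2 scale in replicates 1 to 4, and amino acid transporters by -0.35, 0.31, -0.34 and 0.37. For the 10943 genes of the table whose mean reached 100, the same medians lay between -0.02 and 0.01.

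**Figure D5:**
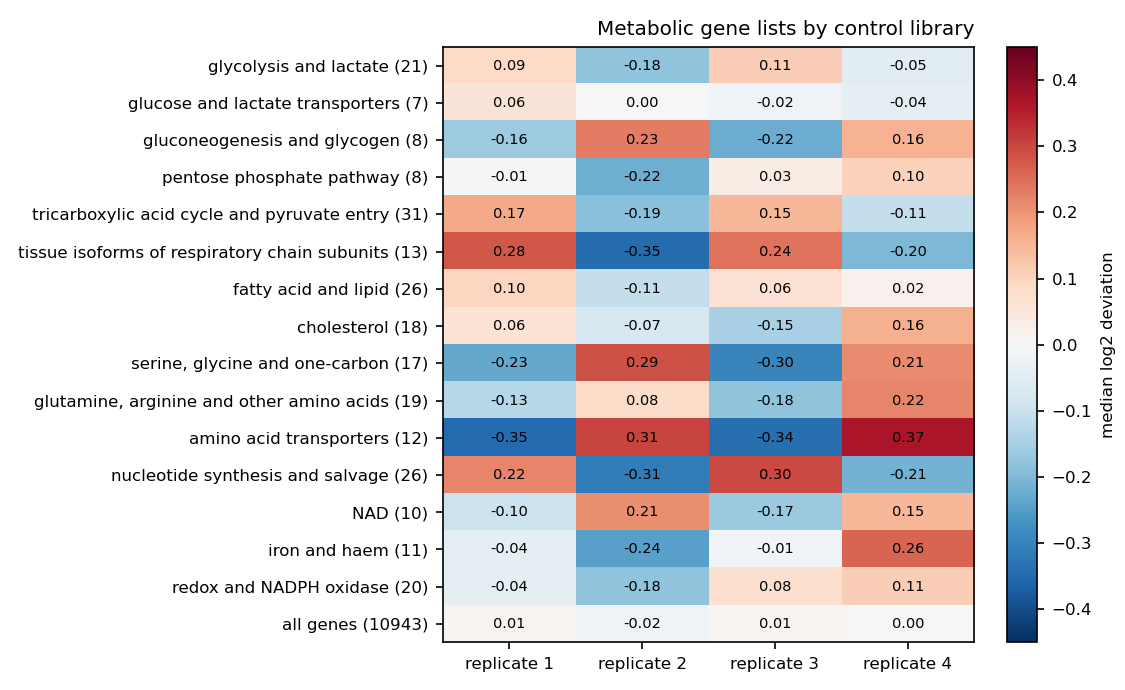
Median log2 deviation of the genes of each metabolic list from their mean over the 4 control libraries, with the number of genes with a mean of at least 100 in brackets and all such genes in the bottom row. Red cells are above and blue cells below the mean. Nucleotide synthesis and respiratory chain genes are above it in replicates 1 and 3, and amino acid transporters and serine genes in replicates 2 and 4.

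Among NAD, iron and redox genes, NAMPT, the rate-limiting enzyme of NAD salvage, had 2413, 3946, 2379 and 4491, NAPRT of the nicotinic acid route 2086 ± 111 and QPRT of the route from tryptophan 3944 ± 388. The transferrin receptor TFRC had 59007, 16716, 62264 and 46896, lowest in replicate 2. The ferritin chain FTL had 118570 ± 18200.2, and the other chain, FTH1, had 3169, 5017, 3824 and 7263. Whether reads of FTH1 were lost in counting was not tested. SLC40A1, the iron exporter of macrophages, had no read, and HAMP was below 10. BLVRA, a biliverdin reductase of many cell types, was below 10 too, and whether its reads were lost in counting was not tested. Of the phagocyte oxidase, CYBA (11454 ± 1691), NCF4 (8129 ± 1449.8) and RAC2 (16409 ± 1821) were abundant and CYBB intermediate.

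Among the 15 genes with the most reads were those of translation, the cytoskeleton and protein folding, with EEF1A1 (676852 ± 124542), ACTB (265675 ± 105141), EEF2, HSP90AB1, TUBB, PABPC1, ACTG1, PTMA, GAPDH, RPS18, HSP90AA1, RPL4, HSPA8 and HMGB1. The 10 leading genes of each library held 4.73 to 5.18% of its reads.

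Gene by gene, the spread between control libraries was mostly larger than counting error. Over the 13027 genes at 10 or more, the median CV was 19.1%, where the reads alone give a median of 2.51%. The median was 29.7% in low, 15.7% in intermediate and 15.6% in abundant genes. A CV over 50% was found for 1363 genes (10.5%), 102 of them abundant. Among the lists with at least 10 detected genes, the highest median CV belonged to the mast cell, basophil and eosinophil list (49.97%), followed by serine, glycine and one-carbon genes (43.3%), and the lowest to the KMT2A fusion machinery (10.2%). The 10 genes with the highest CV among those with a mean of at least 500 were TBC1D30, GDF15, ESRP1, GDAP1L1, TENM4, INHBE, NUPR1, FCRLA, OLAH and ADM2. GDF15, a stress-induced cytokine, had 4.02, 1144, 3.22 and 868 normalized counts. ESRP1, an epithelial splicing factor, had 4.83, 1480.2, 2.15 and 1366. NUPR1, a stress-induced chromatin protein, had 29.8, 1182, 21.5 and 1342. INHBE and ADM2 encode secreted peptides. INHBE had 25.7, 2246, 38.7 and 2365 and ADM2 129.5, 3629.7, 144 and 3019.5. In each of the 10, the values of replicates 2 and 4 were above those of replicates 1 and 3, and TBC1D30 had its highest value, 2734, in replicate 2 alone.

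Close to the limit of 10, the class of a gene rests on few reads. Just below it were IL2RA (4.02, 8.63, 5.37 and 21.7, mean 9.92) and CD34 (mean 9.73), and just above it PGLYRP1 (13.7, 6.04, 8.59 and 12.2, mean 10.1) and FCER1A (12.1, 6.04, 14.0 and 9.42, mean 10.4).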

How the data were processed

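RNA-Seq was measured in MV4-11 cells, and only the 4 libraries labelled Control were used. The values deposited by the authors are a signal per gene, namely read counts divided by 1 size factor per library. The submitters' processing notes name RNA-Star 2.7.2b as the aligner, GENCODE v32 as the annotation, featureCounts 2.0.1 as the counter and DESeq2 2.11.40.6 for the normalization. The sources name neither a strand setting for the counting nor a filter. The deposited signal held whole reads: in each library 100% of values were whole multiples of 1 step within 0.01 reads, and these gave the totals of 48762519 to 65519047 reads on 19590 genes. A count test was not run, since 1 group is described and no groups are compared. The authors' own comparison of knockout and control (fold changes and p-values) and the knockout columns were not used. No per-sample column was without a sample.

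Means, SDs and CVs over the 4 libraries were computed in Python 3.11.15 with pandas 2.3.3 and numpy 2.4.6, and checked on simulated data. Genes were classed at 10, 500 and 5000 normalized counts. The 45 lists (998 genes found in the table) and 22 enzyme families were written from general knowledge. The members, lists and class limits were chosen with earlier results of these data known. Named were the 5 markers, the leading genes of each list (up to 8), its members below 10, the HOX genes and their cofactors, the isozymes, the 15 genes with the most reads and the 10 with the highest CV among those with a mean of at least 500. Further list genes were named for their known role after their values were seen. A level per kb of transcript had been planned, but no transcript lengths were used here, so reads stand in its place. A comparison of promoters between level classes was not made, as too few genes could be matched. Replicate numbers come from the labels. Alternatives were other limits, the lowest library, other scalings and leaving out each replicate. Intervals and limits on a count of 0 cover counting error only. Some genes of the lists are counted in the lists but not reported here by name.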

Additional observations from a re-analysis of the deposited data

Results flagged for a closer look

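In 6 of 314 genes with values in the text and a mean of at least 10, 1 of the 4 control libraries lay far from the other three by Dixon's test at the 95% level. Chance flags about 1 gene in 20, so the number is within what chance gives.

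HOXB3 had 735 normalized counts in replicate 2, and its next value was 443. HOXC6 had 174 in replicate 2, above 106. IRF4, an interferon regulatory factor of plasma and dendritic cells, had 719 in replicate 2, above 513. PDK2, a kinase that inhibits pyruvate dehydrogenase, had 489 in replicate 2, above 404. RAD21, a cohesin subunit, had 54747 in replicate 4, above 42847. TYRO3, a receptor tyrosine kinase, had 1125 in replicate 1, above 1020.4. As the libraries often fall apart into replicates 1 and 3 and replicates 2 and 4, this test, which looks for 1 distant library, passes over such genes.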

How the results depend on the processing

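Of 405 counts of list members at 10 or more under the alternatives, 401 were within 1.5 times the reported count. The erythroid list had 3 genes at a limit of 5 in place of 10. The T cell list had 7 at a limit of 5, 2 at a limit of 20 and 2 when the lowest library had to reach 10. Leaving out 1 replicate gave 6523 to 6622 genes below 10, 3936 to 3966 low, 6452 to 6635 intermediate and 2471 to 2585 abundant genes, and moved the count of none of the 45 lists by over 1.5 times. With a limit of 5 or 20, 5935 or 7180 genes were under it. When the lowest library replaced the mean, 1930 genes were abundant. Scaling the libraries to the same total or upper quartile moved no level of the 317 genes with values in the text by more than 1 SD. When a replicate was left out, 9 of these genes crossed 10. The limit per kb of transcript was not run, since no transcript lengths were used. No paired analysis was possible because 1 group is described and no groups are compared. Depth limits the genes near 10, where a mean stands for about 10 reads in a library.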

Other observations

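Ribosomal protein genes were detected almost without exception, with 1 of 80 below 10. Of the 1006 different genes in the lists, 8 had no row and were not analysed here, among them the glutathione peroxidases GPX1 and GPX4, the thioredoxin reductase TXNRD1 and the cohesin gene SMC3. Of the genome of the mitochondrion, 1 gene had a row, so the share of mitochondrial reads could not be given.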
